A study of Homo sapiens with 6 samples.

Results

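Transcripts of 10 BCL2 family apoptosis regulators were followed across the 6 RNA sequencing libraries of CAL51 cells, an established human triple-negative breast cancer line. The 10 genes were named as a list and found by their symbols: BIK, BBC3, PMAIP1, BCL2L11, BID and BAD of the BH3-only class, the effectors BAX and BAK1, and the antiapoptotic genes BCL2L1 and MCL1. All 10 were among the 14788 genes of the deposited table, and all 10 passed the filter on low values that left 13765 genes for testing. The libraries were 2 of TREX1 KO-1, 2 of TREX1 KO-2 and 2 of control. KO-1 and KO-2 carried different guide RNAs against TREX1, the cytosolic DNA exonuclease, delivered by lentiviral CRISPR v2, and the deposit describes the knockouts as clones. The sources used here do not say what the control carried or whether replicates were grown as separate cultures. The p-values therefore reflect the spread among these libraries alone, which may be technical. Loss of TREX1 and differences between clones cannot be told apart in any comparison with control. TREX1 was not analysed here, so the knockout labels were not checked against it.

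BCL2 family proteins decide whether the outer mitochondrial membrane is breached during apoptosis. BAX and BAK1 form the pores, the antiapoptotic members hold them in check, and BH3-only proteins, which share a single short helix with the rest of the family, either occupy the antiapoptotic members or activate the pore formers. Once the membrane is open, cytochrome c leaves the mitochondria and caspases are switched on. Several of the proapoptotic genes, BBC3, PMAIP1 and BAX among them, are known to be switched on transcriptionally by cell stress. Only transcripts were measured here, and many of these proteins are controlled after transcription, by phosphorylation, cleavage or degradation.

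The shallowest library, KO-2 replicate 1, had 13222933 reads, and the deepest had 25785055. KO-2 replicate 1 also stood apart on the second principal component, at -33.4 against 5.18 to 8.94 in the other 5 libraries. KO-2 replicate 2 stood apart on the third, at 21.6 against -7.87 to -0.744 in the other 5. The epithelial markers EPCAM, KRT8, KRT18, KRT19 and CDH1 were present in every library, at log2 CPM (the log2 of read counts scaled to library size) of 4.84 to 9.93. Of the genes that define the triple-negative label, ERBB2 lay at 7.35 to 7.64, and ESR1 and PGR were not analysed here. Of 7 markers of other cells, 4 were analysed here and none of these was at 0 in any library. CD14 had 2 to 18 reads a library and PECAM1 36 to 82, while PTPRC had 214 to 401 and CDH5 144 to 385. The log2 CPM of CDH5 was lower in all knockout libraries, at 3.73 and 3.54 in KO-1 and 3.48 and 3.46 in KO-2, against 4.05 and 3.85 in control. That of PTPRC was 4.25 and 4.35 in KO-1 and 4.05 and 3.97 in KO-2, against 4.06 and 3.95 in control, so KO-1 lay above control and KO-2 within its range. The part of such markers in the results was not tested.

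Only proapoptotic members passed the test, and all that passed rose. Both guides here means the mean of KO-1 and KO-2, so such a call need not hold for each guide alone. With both guides against control, BIK, BBC3 and PMAIP1 of the BH3-only class and the effector BAX rose, 4 of 10 members, and 0 fell. Over all genes tested, 14.6% were called higher and 14.9% lower, 29.6% in all. By class, 3 of 6 BH3-only genes, 1 of 2 effectors and 0 of 2 antiapoptotic genes were called. The median log2 fold change was 0.34 for the BH3-only genes, 0.22 for the effectors and 0.04 for the antiapoptotic genes, against -0.01 over all genes tested. The difference between the classes was not tested, because members are not replicates. A call here means that limma's p, adjusted by Benjamini and Hochberg's method across every tested gene, was below 0.05.

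**Figure D1:**
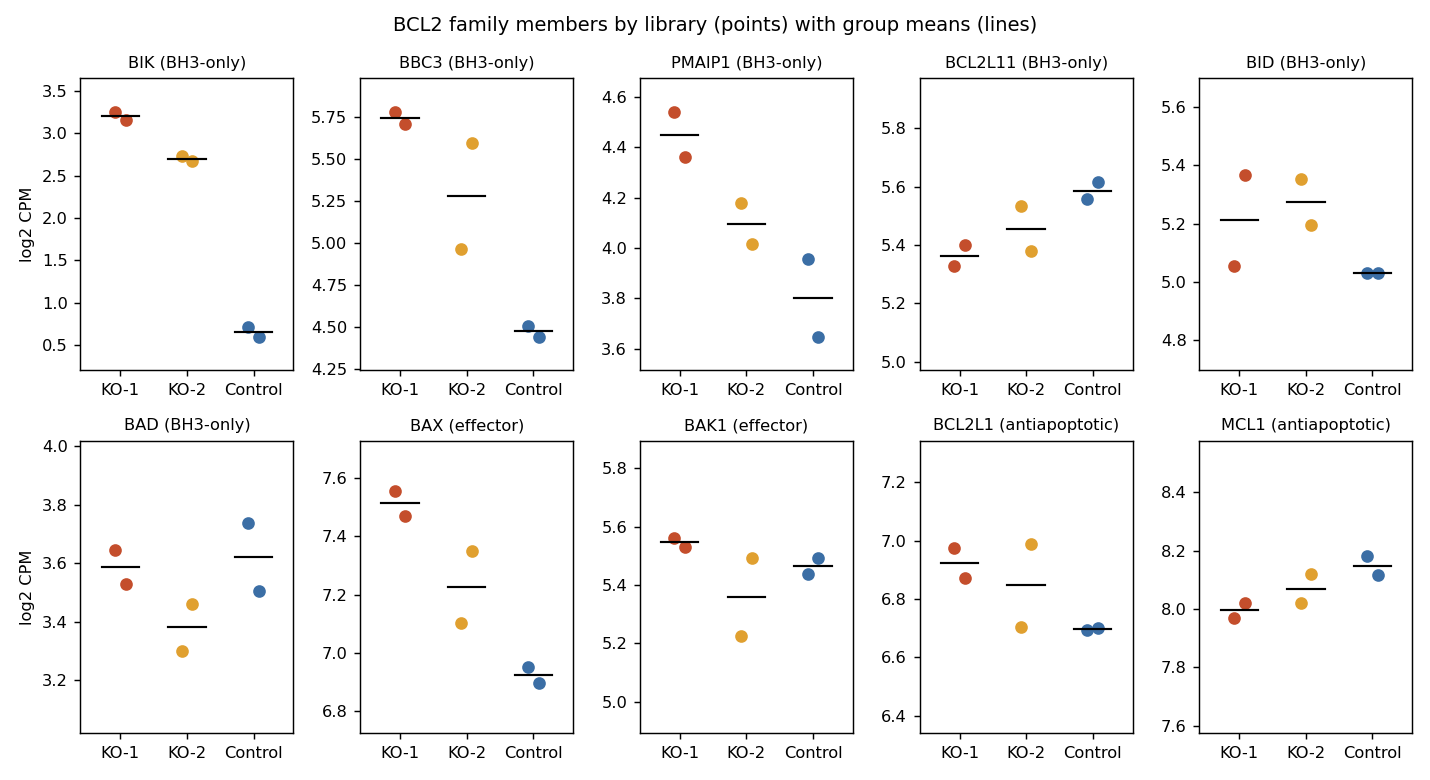
Log2 CPM of each member (vertical axis, its range differs between panels) in the 2 libraries each of KO-1, KO-2 and control; points are libraries and lines are group means. BIK, BBC3, PMAIP1 and BAX are higher in all 4 knockout libraries than in both control libraries, while BAD, BAK1 and MCL1 overlap.

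BIK moved most. BIK is a BH3-only protein that sits largely in the endoplasmic reticulum membrane and binds BCL2 and its antiapoptotic relatives. Its log2 CPM was 3.25 and 3.16 in KO-1 and 2.73 and 2.67 in KO-2, against 0.72 and 0.60 in control. The 3 groups did not overlap: both KO-1 libraries were highest, both KO-2 libraries lay below them and both control libraries were far lower. The gene had 156 and 162 reads in KO-1 and 85 and 126 in KO-2, against 36 and 37 in control, so its control level rests on few reads. The log2 fold change was 2.29 ± 0.17 with both guides (SE, adjusted p = 1.5e-05), 2.54 with KO-1 (adjusted p = 1.8e-05) and 2.04 with KO-2 (adjusted p = 0.00022). By absolute log2 fold change BIK ranked 8 of the 13765 genes tested with both guides. As ratios of mean CPM from the recovered reads, without the small prior that log2 CPM contains, BIK was 6.16-fold higher in KO-1 and 4.31-fold higher in KO-2. BIK kept its call under every setting tried in these 3 comparisons, with an adjusted p of at most 0.015.

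BIK lies on chromosome 22 from 43110748 to 43129712 (hg38 coordinates of GENCODE 29, plus strand), and no other annotated gene overlaps it. The 3 nearest tested protein-coding genes on either side had log2 fold changes with both guides between -0.39 and 0.16. Of these 6 neighbours, which were looked up after the values of BIK were seen, 0 rose and 1, TTLL12, fell.

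BBC3 encodes PUMA, a BH3-only protein that binds every major antiapoptotic member. Its log2 CPM was 5.78 and 5.71 in KO-1 and 4.96 and 5.60 in KO-2, against 4.51 and 4.44 in control. All knockout libraries lay above both control libraries, and KO-2 replicate 1 was the lowest of them. The log2 fold change was 1.04 ± 0.14 with both guides (SE, adjusted p = 0.00043), 1.27 ± 0.16 with KO-1 (adjusted p = 0.00029) and 0.81 ± 0.16 with KO-2 (adjusted p = 0.0083). The KO-2 value depends on which library is used: it was 1.12 without KO-2 replicate 1 and 0.49 without KO-2 replicate 2. The KO-2 call ended when control replicate 1 (adjusted p = 0.060) or 2 (0.067) was dropped, and when the mean-variance trend was (0.10).

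PMAIP1 encodes NOXA, a small BH3-only protein that binds MCL1 above all. Its log2 CPM was 4.54 and 4.36 in KO-1 and 4.18 and 4.02 in KO-2, against 3.96 and 3.65 in control. The order was KO-1, KO-2, control without overlap, but the lower KO-2 library stood only just above the higher control library. PMAIP1 rose by 0.47 ± 0.12 with both guides (SE, adjusted p = 0.014) and by 0.65 with KO-1 (adjusted p = 0.0056), while in KO-2 it stood at 0.29 and was not called (adjusted p = 0.17). Dropping control replicate 2 ended the call for both guides, at 0.32 (adjusted p = 0.23), as did dropping KO-1 replicate 1 (0.064) or the mean-variance trend (0.061). Dropping either of those libraries also ended the KO-1 call, with an adjusted p of 0.083 for the control library and 0.077 for the KO-1 library.

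The other BH3-only genes showed small differences, and none was called. BCL2L11 encodes BIM, an activator of BAX and BAK1. Its log2 CPM was 5.33 and 5.40 in KO-1 and 5.53 and 5.38 in KO-2, against 5.56 and 5.62 in control. BCL2L11 was thus the member whose 4 knockout libraries all lay below both control libraries, with a log2 fold change of -0.18 and a 95% interval of -0.34 to -0.01 (adjusted p = 0.11). With KO-2 replicate 1 dropped, the log2 fold change of BCL2L11 was -0.21. BID, which caspase-8 cleaves to carry death receptor signals to mitochondria, had 5.06 and 5.37 in KO-1 and 5.35 and 5.19 in KO-2, against 5.03 and 5.03 in control. Its 4 knockout libraries lay above both controls, at a log2 fold change of 0.21 (95% interval -0.00 to 0.43, adjusted p = 0.13). With KO-2 replicate 2 dropped, BID was at 0.25. BAD, a sensitizer that 14-3-3 proteins hold in the cytosol when it is phosphorylated, had 3.65 and 3.53 in KO-1 and 3.30 and 3.46 in KO-2, against 3.74 and 3.51 in control. The KO-1 libraries of BAD lay within the control range and both KO-2 libraries below it, and the log2 fold change with both guides was -0.14 (95% interval -0.42 to 0.14, adjusted p = 0.45).

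Reads of BCL2L11 and BAD could in part belong to other genes. BCL2L11 shares 727 exon bases with MIR4435-2HG on the opposite strand, and BAD shares 404 with GPR137. The sources used here do not give the strand setting of the counting, so reads of such a pair may not be told apart. MIR4435-2HG rose by 0.35 with both guides (adjusted p = 0.0063), and GPR137 had a log2 fold change of -0.42 and fell (adjusted p = 0.0083). The part of either in the values of BCL2L11 or BAD was not tested.

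The pore formers parted. BAX had a log2 CPM of 7.55 and 7.47 in KO-1 and 7.10 and 7.35 in KO-2, against 6.95 and 6.90 in control. The 3 groups did not overlap, and KO-2 replicate 1 was the knockout library closest to control. BAX rose by 0.44 ± 0.07 with both guides (SE, adjusted p = 0.00099), by 0.59 with KO-1 (adjusted p = 0.00044) and by 0.30 with KO-2 (adjusted p = 0.026). The KO-2 value was 0.42 without KO-2 replicate 1 and 0.18 without KO-2 replicate 2. The KO-2 call ended when any 1 of 4 other libraries was dropped, with adjusted p values of 0.13 and 0.18 for control replicates 1 and 2 and 0.068 for each KO-1 replicate. It also ended when the mean-variance trend was dropped (0.15) and in a fit of the 4 libraries compared (0.068).

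BAK1 had 5.56 and 5.53 in KO-1 and 5.22 and 5.49 in KO-2, against 5.44 and 5.49 in control. The KO-1 libraries stood just above control, and KO-2 replicate 1 was the lowest of all 6. The log2 fold change with both guides was -0.01 (95% interval -0.20 to 0.17, adjusted p = 0.92), and its sign flipped with library medians set equal (0.03) and under quantile normalization (0.02). The interval thus lies below the 0.44 of BAX, although the difference between the genes was not tested.

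The RefSeq start-site windows give the bases just upstream of the effectors and of the called BH3-only genes BBC3 and PMAIP1. A window was found for 8 of the 10 members, not for BIK and MCL1. The 250 bases before the start are printed 5′ to 3′ on the gene's strand (GRCh38.p14), with capitals marking each CACGTG (the E-box of MYC-type factors). BAX is at chr19:48954625-48954874 on the plus strand, BAK1 at chr6:33580277-33580526 on the minus strand, BBC3 at chr19:47232668-47232917 on the minus strand and PMAIP1 at chr18:59899746-59899995 on the plus strand.
BAX: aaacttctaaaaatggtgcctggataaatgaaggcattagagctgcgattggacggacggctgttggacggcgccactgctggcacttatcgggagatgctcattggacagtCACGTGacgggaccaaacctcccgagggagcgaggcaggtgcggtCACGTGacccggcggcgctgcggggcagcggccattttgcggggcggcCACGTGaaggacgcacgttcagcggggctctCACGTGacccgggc
BAK1: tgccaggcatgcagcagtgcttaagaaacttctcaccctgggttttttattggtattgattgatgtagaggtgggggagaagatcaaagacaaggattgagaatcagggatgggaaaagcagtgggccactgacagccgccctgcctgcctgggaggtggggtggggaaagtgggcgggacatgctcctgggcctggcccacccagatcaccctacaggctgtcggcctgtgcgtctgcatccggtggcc
BBC3: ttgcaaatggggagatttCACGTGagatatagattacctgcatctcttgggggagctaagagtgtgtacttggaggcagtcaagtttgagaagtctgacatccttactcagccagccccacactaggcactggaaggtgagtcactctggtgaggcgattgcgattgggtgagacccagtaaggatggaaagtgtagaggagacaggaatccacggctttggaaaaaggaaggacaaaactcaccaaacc
PMAIP1: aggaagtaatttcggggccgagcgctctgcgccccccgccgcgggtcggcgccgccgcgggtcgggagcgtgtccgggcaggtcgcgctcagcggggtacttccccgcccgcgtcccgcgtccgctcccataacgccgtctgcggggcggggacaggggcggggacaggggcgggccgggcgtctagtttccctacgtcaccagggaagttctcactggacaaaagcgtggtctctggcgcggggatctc
The BAX window holds 4 copies of CACGTG and the BBC3 window holds 1. Over 34943 such windows, 6.32% hold CACGTG, and 5 windows hold at least 4 copies. The BAK1 and PMAIP1 windows hold 0. Among the windows not printed, CACGTG occurs once in each of 2 overlapping windows of uncalled BID, which has 5, and in none of BCL2L11, BAD and BCL2L1. CACGTG reads the same on both strands, so each copy was counted once. A second motif, GGGCGG, was counted on either strand, with 4 copies in PMAIP1, 2 in BAK1, 1 in BAX and 0 in BBC3. Over all windows, 42.6% hold GGGCGG and 7.6% hold at least 4 copies. Among the windows not printed, that of BCL2L11 holds 3, those of BID 0 to 4, those of BAD 1 and those of BCL2L1 0. A match is a string of letters and not a shown binding site, and regulatory sites can lie outside these windows. Neither the motifs nor the cut of 4 copies was part of the planned design, so these counts and shares are descriptions only.

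Neither antiapoptotic member was called. BCL2L1, whose main product BCL-XL holds BAX and BAK1 inactive, had a log2 CPM of 6.98 and 6.87 in KO-1 and 6.71 and 6.99 in KO-2, against 6.69 and 6.70 in control. All 4 knockout libraries were above both control libraries, but KO-2 replicate 1 exceeded the higher control by little. The log2 fold change with both guides was 0.19 (95% interval 0.02 to 0.36, adjusted p = 0.087). Without KO-2 replicate 1 the log2 fold change was 0.26. BCL2L1 was called with library medians set equal, at 0.23 (adjusted p = 0.039), where 30.3% of all genes were called. It was also called with a weight for each library (adjusted p = 0.017), where 38.1% of all genes were, against 29.6% in the main fit. Gene-level values do not separate BCL-XL from the short proapoptotic splice form, and BCL2L1 shares 1424 exon bases with ABALON on the opposite strand.

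MCL1, a short-lived survival protein, had 7.97 and 8.02 in KO-1 and 8.02 and 8.12 in KO-2, against 8.18 and 8.12 in control. Both KO-1 libraries lay below control, and KO-2 replicate 2 overlapped it. With both guides the log2 fold change was -0.12 (95% interval -0.22 to -0.01, adjusted p = 0.10), on 3386 to 7244 reads a library. Without KO-2 replicate 2 the log2 fold change was -0.14. MCL1 was called lower under quantile normalization, at -0.18 (adjusted p = 0.027), where 29.2% of all genes were called. It was also called with a weight for each library (adjusted p = 0.048), where 38.1% of all genes were, against 29.6% in the main fit.

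**Figure D2:**
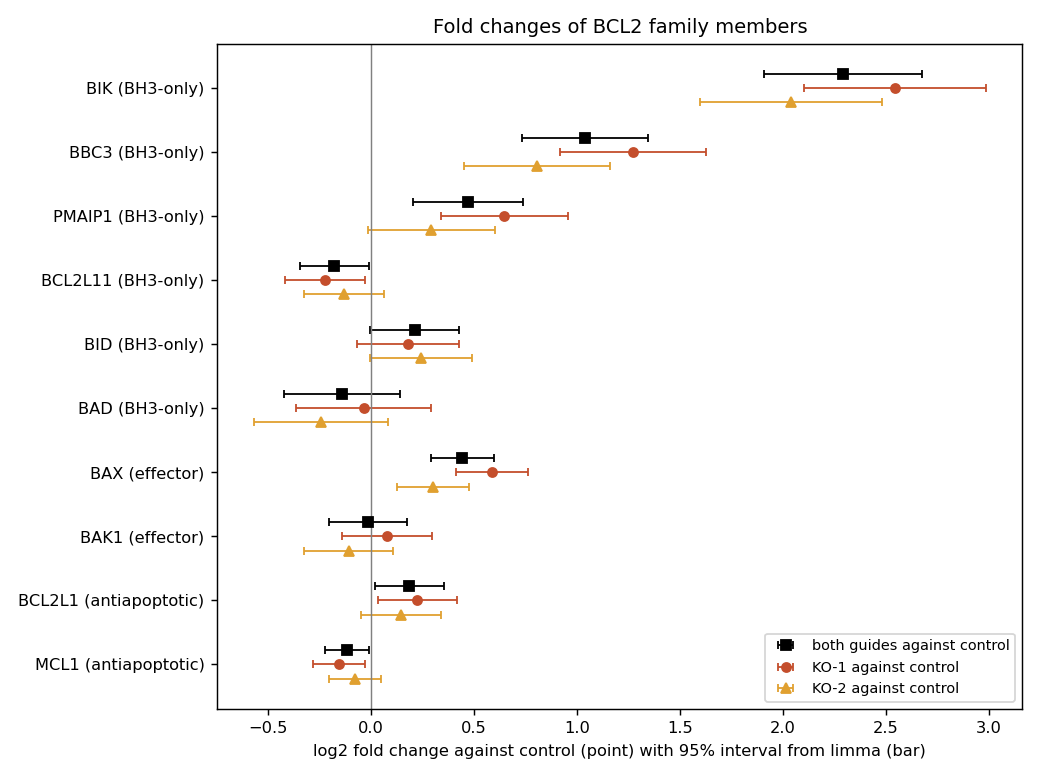
Log2 fold change of each member against control (horizontal axis) for both guides, KO-1 and KO-2, with 95% intervals from limma as bars. BIK, BBC3 and BAX lie above 0 in all 3 comparisons, the intervals of BCL2L1 and MCL1 lie within 0.42 of 0 on either side, and BAK1 straddles 0.

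The balance of opposing transcripts can be read within a library, as a difference between 2 log2 CPM values that needs no scaling between libraries. BAX minus BCL2L1 was 0.58 and 0.60 in KO-1 and 0.40 and 0.36 in KO-2, against 0.26 and 0.20 in control. BAX minus MCL1 was -0.42 and -0.55 in KO-1 and -0.92 and -0.77 in KO-2, against -1.23 and -1.22 in control. Both differences therefore ordered the libraries KO-1, KO-2, control without overlap, KO-2 replicate 1 included. PMAIP1 minus MCL1, a binding pair, was -3.43 and -3.66 in KO-1 and -3.84 and -4.10 in KO-2, against -4.22 and -4.47 in control. BBC3 minus MCL1 was -2.19 and -2.31 in KO-1 and -3.06 and -2.52 in KO-2, against -3.67 and -3.67 in control. BCL2L11 minus MCL1 overlapped between all groups, at -2.64 and -2.62 in KO-1, -2.49 and -2.74 in KO-2, and -2.62 and -2.50 in control. BAK1 minus MCL1 was -2.41 and -2.49 in KO-1 and -2.80 and -2.63 in KO-2, against -2.74 and -2.62 in control, with KO-2 overlapping control. BCL2L1 minus MCL1, both antiapoptotic, was -0.99 and -1.15 in KO-1 and -1.32 and -1.13 in KO-2, against -1.49 and -1.41 in control. Lying above control relative to MCL1 is therefore not particular to proapoptotic genes. The share of such separations over other gene pairs was not tested.

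**Figure D3:**
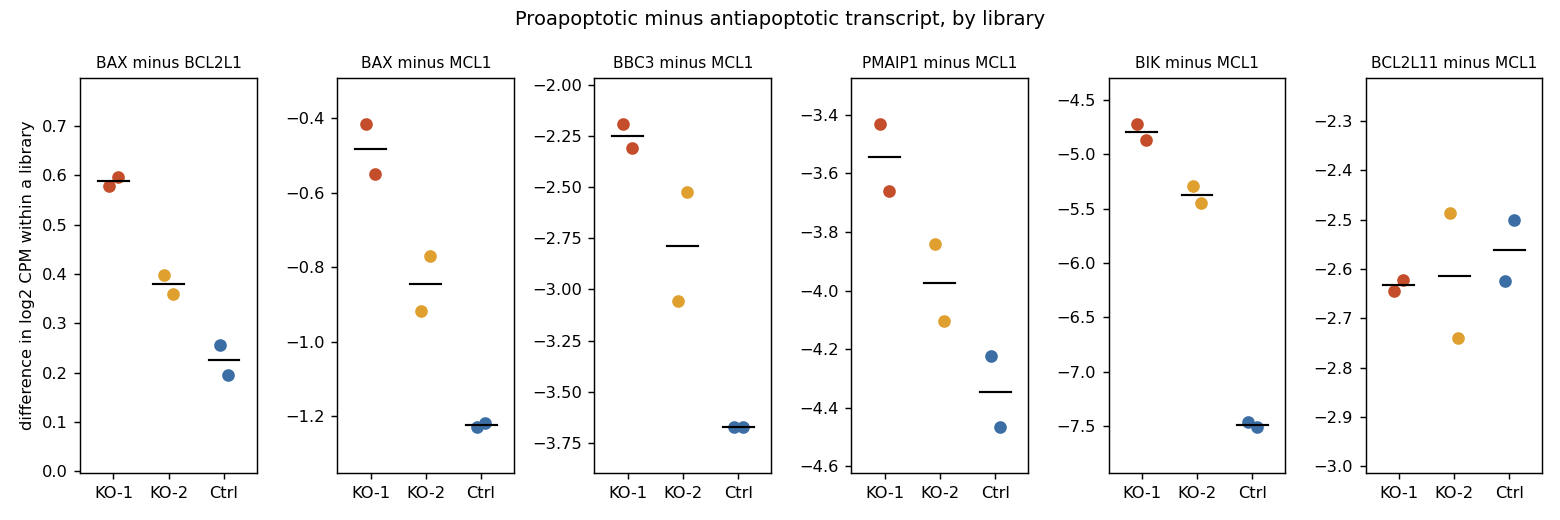
Difference between a proapoptotic and an antiapoptotic member in log2 CPM within each library (vertical axis, range differs between panels) in KO-1, KO-2 and control; points are libraries and lines are group means. In 5 of the 6 panels the knockout libraries lie above control, and BCL2L11 minus MCL1 overlaps. BAK1 minus MCL1, not drawn, overlaps too.

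Averaged over classes, the mean of the BH3-only genes minus that of the antiapoptotic genes was -2.87 and -2.86 in KO-1 and -3.02 and -3.17 in KO-2, against -3.52 and -3.60 in control. With BIK left out the values were -2.60 and -2.57 in KO-1 and -2.70 and -2.82 in KO-2, against -2.88 and -2.96 in control. The groups stayed apart without BIK, by a smaller distance, with KO-2 replicate 2 only just above the higher control library. That average still holds BBC3 and PMAIP1, which were called higher. The effectors gave -0.92 and -0.95 in KO-1 and -1.20 and -1.13 in KO-2, against -1.24 and -1.21 in control. In the effector average KO-2 replicate 1 thus lay only just above the higher control library.

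Levels of different genes were compared only per length, as group mean CPM per kb of merged GENCODE 29 exons. In control the order was led by MCL1 at 64.9 ± 2.0, then BAX at 46.9 ± 1.2, BCL2L1 at 31.3 ± 0.1 and BAK1 at 19.9 ± 0.5 (SD, n = 2). BID (7.33), BCL2L11 (7.20), BAD (7.17), BBC3 (6.96) and PMAIP1 (6.23) followed within the spread of several of them, and BIK was last at 1.55 ± 0.09. In KO-1, BAX at 70.6 ± 2.9 stood above MCL1 at 58.4 ± 1.4, and the libraries did not overlap. In KO-2, BAX at 58.0 ± 7.0 and MCL1 at 61.5 ± 3.0 overlapped. BBC3 led the BH3-only genes in both knockouts, at 16.8 ± 0.6 in KO-1 and 12.5 ± 3.8 in KO-2, although in KO-2 replicate 1 it was at 9.79 beside 9.17 for BID. BIK, at 9.56 ± 0.44 in KO-1 and 6.70 ± 0.20 in KO-2, reached the range of the other BH3-only genes. These levels depend on the exon model, since the sources used here do not name the annotation used for counting. In bulk RNA, a lower level in each cell and fewer cells with the transcript cannot be told apart.

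**Figure D4:**
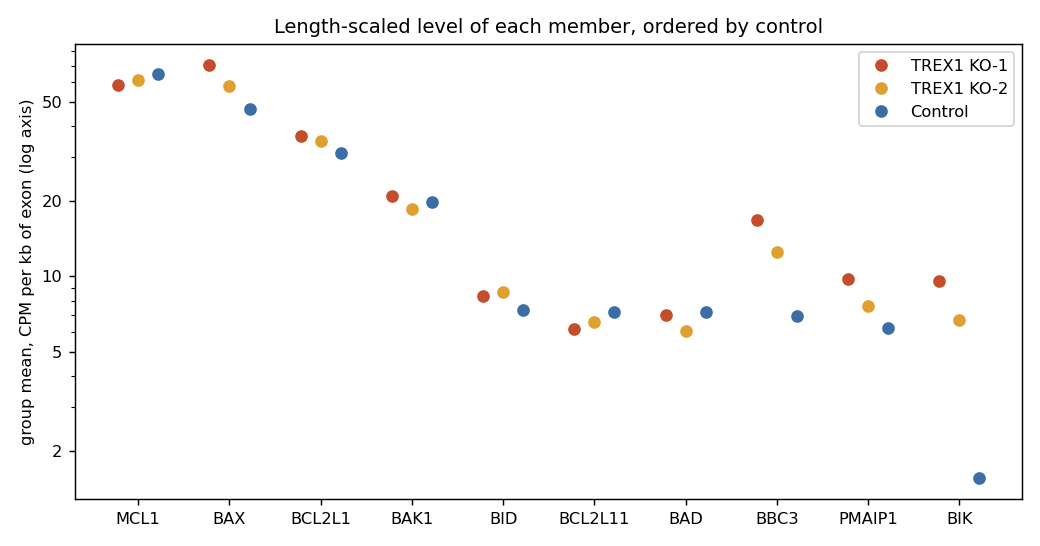
Group mean level of each member in CPM per kb of exon (vertical log axis) in KO-1, KO-2 and control, ordered by control. MCL1 is above BAX in control (64.9 and 46.9) and below it in KO-1 (58.4 and 70.6), and BIK has the lowest control level (1.55).

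The guides were compared directly as KO-2 against KO-1. Since the deposit describes the knockouts as clones, guide and clone cannot be told apart in this comparison. Of the 10 members 0 were called by limma in this comparison, where 1.14% of all genes tested were (0.334% higher and 0.806% lower), and 4 had an unadjusted p below 0.05. The weighted fit on recovered reads and the authors' deposited table also called 0. BAX differed by -0.29 ± 0.08 (SE, adjusted p = 0.12), BBC3 by -0.46 ± 0.16 (0.18), BIK by -0.51 ± 0.20 (0.23) and PMAIP1 by -0.35 ± 0.14 (0.23). Their 95% intervals were -0.46 to -0.11 for BAX, -0.82 to -0.11 for BBC3, -0.95 to -0.06 for BIK and -0.66 to -0.05 for PMAIP1, so the values are not shown to be alike. Both KO-2 libraries lay below both KO-1 libraries for 6 of 10 members, where 21.9% of all genes did; 22.3% lay above, and 44.2% did not overlap in either direction. Without KO-2 replicate 2, where 23% of all genes were called, 4 members were called lower: BBC3 at -0.78, BAX at -0.41, BAK1 at -0.32 and BCL2L1 at -0.22. Without KO-2 replicate 1, where 5.35% of genes were called, 0 were.

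Each guide against control shared the same control libraries. KO-1 gave 4 members higher and 0 lower, where 29.7% of genes were called, 14.6% higher and 15.1% lower. KO-2 gave 3 higher and 0 lower, where 16.9% were called, 8.73% higher and 8.19% lower. With KO-2 replicate 1 left out, the count was 4 for KO-2, BCL2L1 included at 0.29 (adjusted p = 0.0021), where 26.2% of genes were called. It was 6 for both guides, where 42.6% were. The authors' deposited table called 4 members with KO-1 and 3 with KO-2 at a false discovery rate below 0.05, with a log2 fold change for BIK of 2.62 in KO-1 and 2.10 in KO-2. In 6 of 10 members the 4 knockout libraries all lay above both controls and in 1 they lay below, against 22.3% and 24% of all genes, 46.3% in all. For KO-1 alone 7 lay above and 2 below, where 35.5% and 36.2% of genes did (71.7% in all). For KO-2 alone 6 lay above and 2 below, where 28% and 30.9% of genes did (59% in all).

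Outside the 10 members, 12 other genes listed with the BCL2 family were tested. The list also held BNIP2, which is not an established member of the family. With both guides 5 rose and 3 fell, where 14.6% of all genes rose and 14.9% fell (29.6% in all), and their median was -0.00 (log2), against -0.01 over all genes. These shares and the all-gene median apply also to the other lists. The largest rises belonged to BNIP1, a SNARE protein of the endoplasmic reticulum, which rose by 0.62 ± 0.11 (SE, adjusted p = 0.0022), and BMF, a BH3-only protein tied to the dynein light chain, which rose by 0.53 ± 0.09 (adjusted p = 0.0018). BMF had a log2 CPM of 4.83 and 4.85 in KO-1 and 4.64 and 4.82 in KO-2, against 4.22 and 4.28 in control. BNIP2 rose by 0.26 (adjusted p = 0.0059), at 0.36 in KO-1 (0.0021) and 0.16 in KO-2, where it was not called (0.12). BCL2L15 rose by 0.50 (adjusted p = 0.043), at 0.82 in KO-2 (0.016) and 0.18 in KO-1, where it was not called (0.51). BNIP3L, a receptor for the removal of mitochondria by autophagy, was called at 0.24 (adjusted p = 0.048) but differed between KO-1 and KO-2. Its log2 CPM was 5.91 and 5.91 in KO-1 and 5.38 and 5.14 in KO-2, against 5.39 and 5.30 in control.

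Antiapoptotic BCL2L2, which encodes BCL-W, fell by 0.39 (adjusted p = 0.018), with log2 CPM of 4.68 and 4.53 in KO-1 and 4.66 and 4.99 in KO-2, against 5.12 and 5.08 in control. BOK, an effector-like protein, fell by 0.50 (adjusted p = 0.026), with 3.69 and 3.64 in KO-1 and 3.60 and 4.18 in KO-2, against 4.26 and 4.30 in control. BECN1, the autophagy protein that binds BCL2, fell by 0.35 (adjusted p = 0.0079). In KO-2 alone BCL2L2 (adjusted p = 0.15), BOK (0.14) and BECN1 (0.075) were not called. BCL2 itself, the founding antiapoptotic member, had 5.46 and 5.39 in KO-1 and 5.52 and 5.42 in KO-2, against 5.44 and 5.41 in control. The groups of BCL2 overlapped, at a log2 fold change of 0.02 (adjusted p = 0.85). BCL2L12 (-0.13), BNIP3 (-0.08) and BCL2L13 (-0.03, which became 0.02 with library medians set equal and 0.03 without KO-1 replicate 2) were not called either.

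Many of these calls rest on both controls. Without control replicate 1, where 9.34% of all genes were called (11% without control replicate 2), the list gave 2 genes higher and 0 lower, BMF and BNIP1 among all 12, and the calls of BNIP2 (adjusted p = 0.057), BECN1 (0.071), BCL2L2 (0.16), BOK (0.15), BCL2L15 (0.11) and BNIP3L (0.16) were lost. Without control replicate 2 the same 6 calls were lost, at adjusted p = 0.11, 0.14, 0.12, 0.17, 0.35 and 0.33 in that order. Without KO-1 replicates 1 and 2, BOK (adjusted p = 0.075 and 0.084), BCL2L15 (0.10 and 0.091) and BNIP3L (0.13 and 0.13) lost their calls, as did BCL2L2 without KO-1 replicate 2 (0.073) and BCL2L15 without KO-2 replicate 1 (0.050). With no mean-variance trend BCL2L2 (0.080), BOK (0.11), BCL2L15 (0.058) and BNIP3L (0.12) lost theirs. With the 4 knockout libraries as 1 group BCL2L15 (0.14) and BNIP3L (0.39) did, and with no filter on genes BNIP3L (0.050). BMF and BNIP1 were called for both guides under every setting run.

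**Figure D5:**
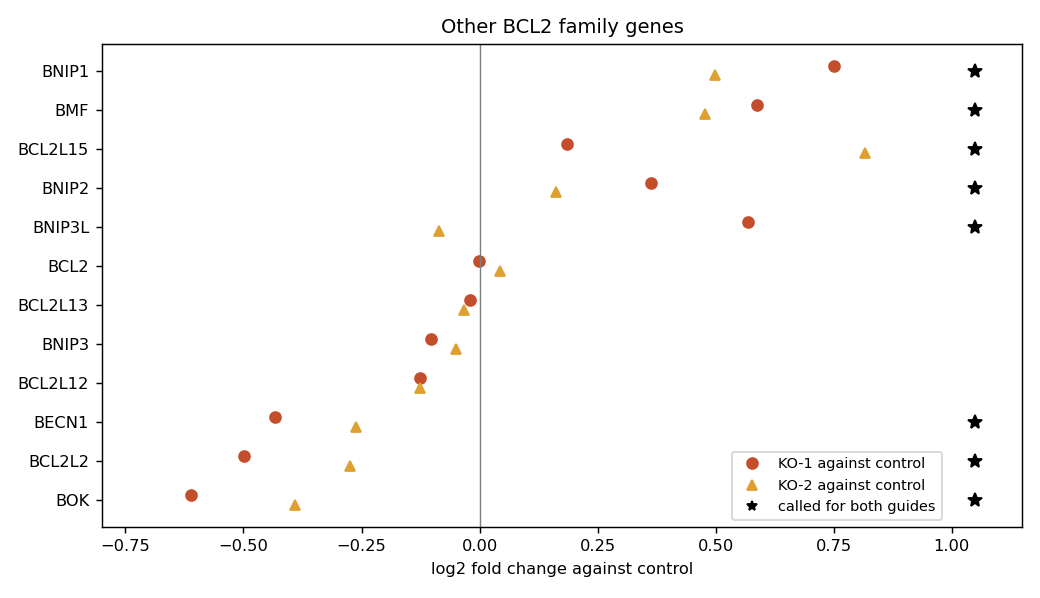
Log2 fold change against control (horizontal axis) of the 12 other genes listed with the BCL2 family, with KO-1 as circles and KO-2 as triangles. Stars mark the 8 genes called for the mean of KO-1 and KO-2, which need not be called for each guide alone. BNIP1 and BMF are higher with both guides, BOK and BCL2L2 are lower, and BNIP3L is higher in KO-1 (0.57) but not in KO-2 (-0.09).

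Downstream of the mitochondria, the list of apoptosome genes and caspases gave 3 of 15 higher and 1 lower with both guides, at a median of -0.06; the share called was near the 29.6% of all genes. PIDD1, the scaffold that activates caspase-2, rose by 1.10 ± 0.15 (SE, adjusted p = 0.00043). Its log2 CPM was 6.34 and 6.45 in KO-1 and 5.36 and 6.06 in KO-2, against 4.97 and 4.93 in control, with KO-2 replicate 1 again the lowest knockout library. CASP2, the caspase it activates, rose by 0.36 (adjusted p = 0.00077). APAF1, the scaffold of the apoptosome, rose by 0.17 (adjusted p = 0.047), and the executioner CASP6 fell by 0.42 (adjusted p = 0.018). In KO-2 alone neither APAF1 (adjusted p = 0.26) nor CASP6 (0.074) was called. The call of APAF1 ended when control replicate 1 (adjusted p = 0.36) or 2 (0.17) or KO-1 replicate 1 (0.11) or 2 (0.13) was dropped. It also ended in the fit with a replicate block (0.072), with no mean-variance trend (0.11), with the knockouts as 1 group (0.10) and under quantile normalization (0.051). That of CASP6 ended when either control (0.14 each) or KO-1 replicate 1 (0.075) was dropped, and with no mean-variance trend (0.079). CASP9, the initiator caspase of the apoptosome, was at -0.14 and was not called.

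The list of inhibitor of apoptosis genes and antagonists also held ARMC6, which is not an established member of either class. Of its 8 genes tested, 2 rose and 1 fell (median 0.07), where 29.6% of all genes were called. BIRC3, a ubiquitin ligase and NF-kB target, rose by 0.63 ± 0.10 (SE, adjusted p = 0.0012), with 4.89 and 4.64 in KO-1 and 4.77 and 4.66 in KO-2, against 4.07 and 4.15 in control. Its relative BIRC2 rose by 0.20 (adjusted p = 0.028), and BIRC5, the mitotic gene for survivin, fell by 0.17 (adjusted p = 0.036). In KO-1 BIRC2 was at 0.34 (adjusted p = 0.0042) and BIRC5 at -0.19 (0.045). In KO-2 they were at 0.06 (adjusted p = 0.59) and -0.16 (0.12), and neither was called. ARMC6 was at -0.17 (adjusted p = 0.074). Dropping control replicate 1, control replicate 2, KO-1 replicate 1 or KO-1 replicate 2 ended the calls of BIRC2 (adjusted p = 0.24, 0.17, 0.062 and 0.11) and BIRC5 (0.30, 0.16, 0.10 and 0.11). Both also ended with no mean-variance trend (0.078 for BIRC2 and 0.13 for BIRC5) and with the knockouts as 1 group (0.17 and 0.068), and that of BIRC5 with library medians set equal (0.11). XIAP, the direct caspase inhibitor, was at 0.09 and was not called.

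Of 19 mitochondrial and endoplasmic reticulum partners, 3 rose and 6 fell (median -0.03), where 14.6% of all genes rose and 14.9% fell. ITPR3, a calcium channel of the endoplasmic reticulum that BCL2 family proteins regulate, fell by 0.86 (adjusted p = 3.8e-05), with 5.38 and 5.22 in KO-1 and 5.34 and 5.49 in KO-2, against 6.19 and 6.24 in control. MTCH2, the outer membrane receptor for cleaved BID, fell by 0.38 (adjusted p = 0.00089). OPA1, which shapes the cristae, rose by 0.31 (adjusted p = 0.00095), and TMBIM6, also called BAX inhibitor 1, rose by 0.24 (adjusted p = 0.0013). With library medians set equal this list split as 6 higher and 3 lower, and without control replicate 1 or 2 as 3 higher and 2 lower, where 9.34% and 11% of all genes were called.

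Among 31 genes listed as regulators of the stability or binding of BCL2 family proteins, 7 rose and 8 fell (median 0.01). Over all genes tested, 29.6% were called. The list also held DESI1, which is not an established regulator of these proteins. The counts were 4 and 2 without control replicate 1, where 9.34% of genes were called, and 2 and 3 without control replicate 2, where 11% were. SFN, the 14-3-3 protein sigma, rose by 1.11 ± 0.19 (SE, adjusted p = 0.0015) on 58 to 150 reads a library. TPT1, which binds MCL1, rose by 0.27 (adjusted p = 0.0010), AKT1, a kinase of BAD, fell by 0.28 (adjusted p = 0.0022, and 0.060 with control replicate 1 dropped), and DESI1 fell by 0.57 (adjusted p = 0.00021). Of 22 transcription factors and cofactors of these genes, 9 rose and 3 fell, where 14.6% and 14.9% of all genes did, with a median of 0.16 against -0.01 over all genes. The counts were 5 and 1 without control replicate 1 and 4 and 1 without control replicate 2. STAT3 rose by 0.58 (adjusted p = 1.8e-05) and JUN by 0.43 (adjusted p = 0.00086), and E2F1 fell by 0.91 (adjusted p = 2.65e-05). In KO-2 alone JUN was at 0.24 and was not called (adjusted p = 0.052). FOXO3, a factor of BCL2L11 and BBC3, was at 0.15 (adjusted p = 0.16).

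The genes most like 3 of the members over the 6 libraries were found by the distance between centred log2 CPM profiles among 12215 other genes. Among the 3 nearest BIK were CXCL8 (distance 0.663, Pearson r 0.986) and CXCL1 (0.726, r 0.980). Nearest BBC3 were PHLDA3 (distance 0.115, r 0.998), LIF (0.198, r 0.989) and NFE2L3 (0.235, r 0.985). Nearest BAX were MMP14 (distance 0.0889, r 0.996), LMBR1L (0.0938, r 0.989) and SLFN12 (0.0944, r 0.988). PHLDA3 had 6.93 and 6.81 in KO-1 and 6.02 and 6.61 in KO-2, against 5.53 and 5.48 in control, so it shared with BBC3 the gap between the KO-2 libraries. All genes compared come from the same 6 libraries, with the same groups and depths, and the r values are descriptions over 6 points.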

How the data were processed

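RNA of CAL51 cells was sequenced in 6 libraries, 2 each of TREX1 KO-1, TREX1 KO-2 and control, grouped by their titles. Per the submitters' processing notes, reads were handled with fastp and STAR (version 2.7), counts came from featureCounts (Subread, version 2.0), and edgeR and hg38 were also named. The sources used here do not give the annotation, the strand setting or any gene filter. The authors deposited log2 CPM for 14788 genes, and a table of their own comparisons with log2 fold changes, p-values and false discovery rates. Whole reads were recovered by subtracting the shared prior of 0.102 CPM (100% of values within 0.01 reads). 1 read was worth 0.0383 to 0.0767 CPM, which limits precision for counting error only.

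Genes with log2 CPM of at least 0 in at least 2 libraries (13765) were fitted with limma (version 3.58.1, R 4.3.3) as group means over all 6 libraries, with a mean-variance trend, on the values as deposited, so fold changes are on the log2(CPM + prior) scale and understate changes of low genes. The fit was also run on simulated counts with the same dispersion in every library, so that run cannot speak to the uneven spread here. Between replicates, chi-square per degree of freedom over the recovered reads was 8.54 in KO-2, 3.01 in KO-1 and 3.68 in control. Both guides means the mean of KO-1 and KO-2. Alternatives covered filter, prior, scaling, trend, replicate block, weights and leaving out each library. The members and lists were chosen with earlier results of these data known. All 10 members are named; of each list, the 4 tested genes with the smallest p for both guides (all tested genes for the other family list), and for BIK, BBC3 and BAX the 3 most alike genes, and any further gene was chosen after its values were seen. Of the genes this rule names, 2 are not reported here. Exon lengths and coordinates are from GENCODE 29 and start-site windows from RefSeq (GRCh38.p14).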

Additional observations from a re-analysis of the deposited data

Results flagged for a closer look

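By the direct test KO-2 differed from KO-1 in 2 genes named above, where 1.14% of all genes tested were called. Guide and clone cannot be told apart here. BNIP3L, a mitophagy receptor, had a log2 fold change of -0.65 for KO-2 against KO-1 (limma, adjusted p = 0.011), with all KO-2 libraries below all KO-1 libraries. The call ended without KO-1 replicates 1 and 2 (adjusted p = 0.31 each) and with no mean-variance trend (0.21). JUN, a subunit of AP-1, had -0.38 (adjusted p = 0.037), with 6.28 and 6.29 log2 CPM in KO-2 against 6.62 and 6.73 in KO-1. That call ended when control replicate 1 (adjusted p = 0.10) or 2 (0.099) or KO-1 replicate 1 (0.31) or 2 (0.42) was dropped, in the fit with a replicate block (0.065), with a weight for each library (0.057) and with no mean-variance trend (0.23).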

How the results depend on the processing

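The count of members called for both guides was 4 and stayed between 3 and 6 with 1 library left out. The count for KO-1 was 4, ranged from 3 to 7 with 1 library left out, and was 7 with array weights and in the fit of the 4 libraries compared. The count for KO-2 was 3, ranged from 1 to 5, and was 1 with no mean-variance trend. The count for KO-2 against KO-1 was 0 and ranged from 0 to 4. For KO-1, 45.4% of all genes were called with array weights and 45.5% in the fit of 4 libraries, against 29.7% in the main fit. For KO-2, 1.18% of all genes were called with no mean-variance trend, against 16.9% in the main fit. The replicate block gave 4, 4, 3 and 0 members for both guides, KO-1, KO-2 and KO-2 against KO-1. The shares of all genes called there were 27.5%, 27.8%, 14.9% and 0.763% in that order. The replicate numbers do not pair libraries by any label, and deviations of same-numbered libraries correlated at -0.05 (KO-1 and control), 0.04 (KO-2 and control) and -0.04 (KO-2 and KO-1). Among the members, signs flipped only for values uncalled in the main fit, BAK1 in KO-2 at -0.108 among them. With library medians set equal and under quantile normalization, BAD in KO-1 became 0.0167 and 0.00693 in place of -0.04, and BAK1 with both guides 0.0325 and 0.0152 in place of -0.01. With 1 library left out BAD in KO-1 ranged from -0.151 to 0.0812, BAK1 with both guides from -0.0811 to 0.0539, BAK1 in KO-2 from -0.243 to 0.0272, and for KO-2 against KO-1 BID from -0.0917 to 0.218 and BCL2L1 from -0.220 to 0.0637. Over all genes, calls for both guides numbered 4068, 2201 with no mean-variance trend, and 1286 to 6075 with 1 library left out. Calls for KO-1 numbered 4089, 2345 with no trend, 6243 with array weights, 6259 in the fit of the 4 libraries compared, and 1694 to 6255 with 1 library left out. Those for KO-2 numbered 2329, 162 with no trend, 1371 in the fit of 4 libraries, and 362 to 4565 with 1 library left out. Those for KO-2 against KO-1 numbered 157, 1 with no trend, 48 in the fit of 4 libraries, and 0 to 3170 with 1 library left out. With library medians set equal, 61.7% of the calls for both guides were higher in place of 49.4%, 60.5% of those for KO-1 in place of 49%, and 64.5% of those for KO-2 in place of 51.6%. The causes of these shifts were not tested. At 36 and 37 control reads, counting error limits the level of BIK most.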
